A study of Mus musculus with 8 samples.

Results

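Heterotrimeric G protein subunits and the RGS proteins that switch them off were followed in isolated pancreatic islets, comparing wild type with knockout. All probe sets with a single annotated symbol of the Gna, Gnb, Gng or Rgs families were taken, by symbol alone, and Gnas was counted separately as a pathway partner. This gave 44 genes of the 13675 that had such a symbol, on 84 probe sets of 24965, 59 of the 12488 on array type MG-U74A and 25 of the 12477 on MG-U74B. Of these genes 38 had a probe set on MG-U74A, 18 on MG-U74B and 12 on both.

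The groups were islet total RNA of 2 genotypes, wild type and a knockout of 1 gene, each with 2 replicates on each Affymetrix array type, 8 arrays in all. The series calls the replicates biological. Whether they came from separate animals or pools was not stated, so the p-values reflect only how far these arrays differ, and some of that may be technical. Nor was it stated whether the same RNA was put on both array types, so like changes on both may not come from separate samples. Age, strain, the cells in which the gene was deleted and the way the islets were isolated are not given in the sources used here.

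A heterotrimeric G protein carries the signal of a receptor with 7 membrane passages into the cell. The alpha subunit exchanges GDP for GTP when the receptor is engaged and parts from the beta and gamma dimer, and both parts then act on enzymes and channels. Alpha subunits of the Gi, Go and Gz class lower cyclic AMP, those of the Gq class activate phospholipase C, and those of the G12 class act on the cytoskeleton. RGS proteins speed up GTP hydrolysis by the alpha subunit and so end the signal. In the islet, Gs and Gq receptors enhance insulin release, and Gi, Go and Gz receptors for adrenaline, somatostatin and galanin restrain it.

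The islet markers were present in both genotypes. On MG-U74A all 7 beta cell markers on the array fell, with a summed intensity of 60379 to 61186 in wild type and 41903 to 46603 in knockout arrays. So did 5 of 5 tested markers of other islet cells (79130 to 79234 against 44565 to 48278) and 8 of 8 acinar markers (39985 to 40305 against 5081 to 5639). The median log2 changes of these lists, on the scale given below, were -2.24, -0.88 and -2.97. The beta cell sum rests mostly on Ins2 and Iapp, which changed least of that list, by -0.27 and -0.43. Of 7 duct markers 4 fell and 1 rose (8078 to 8763 against 5270 to 5394, median change -0.50). Markers of several other cells rose on MG-U74A. For lymphocytes 7 of 10 tested rose (summed intensity 5722 to 5770 against 22498 to 23293) and for macrophages and dendritic cells 13 of 14 (6961 to 7067 against 21669 to 21904). For fibroblasts and stellate cells 10 of 13 rose and 1 fell (6740 to 6751 against 19194 to 20220). Their median changes were 2.03, 1.45 and 1.32. In both wild type arrays Cd3e, Cd79a and Cd22 of the lymphocyte list and Itgam and Fcer1g of the macrophage list were listed at or below 0, and in both knockout arrays only Cd3e of these was. The 3' control probe set of Gapdh divided by the 5' one, which is higher where labelled RNA is less complete, was 3.15 to 3.22 in wild type and 0.937 to 0.949 in knockout arrays on MG-U74A, and 3.07 to 3.12 against 0.900 to 0.914 on MG-U74B. The same ratio for beta actin was 1.45 to 1.47 against 1.12 to 1.16 on MG-U74A and 1.45 to 1.48 against 1.13 to 1.18 on MG-U74B. In whole islets fewer cells of a type and less RNA per cell cannot be told apart, and the part of these marker and RNA quality differences in the results below was not tested.

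The G protein and RGS transcripts split into a larger group that was lower in knockout islets, with most alpha subunits in it, and a smaller group that was higher, with Gnb1, Gnb4, Rgs10, Rgs19 and Rgs5. Intensities are linear values in which 1 array averages about 250 after trimming, and changes are on the log2(intensity + 25) scale, counted as knockout less wild type and given ± standard error. A probe set was tested where its mean over the 4 arrays of a type reached 62.5, and it is said to have risen or fallen where limma's adjusted p was below 0.05. On MG-U74A 42 of the 59 members were tested and 28 changed, 11 up and 17 down, which is 66.7% beside 52.9% of all 7516 tested probe sets (23.9% rose and 29.0% fell). The median change of the tested members was -0.36 and that of all tested probe sets -0.09. On MG-U74B 20 of the 25 members were tested and 8 changed, 3 up and 5 down, which is 40.0% beside 17.5% of all 7861 tested probe sets (8.59% rose and 8.87% fell). Their median change was 0.02 and that of all tested probe sets 0.11. By gene, 7 genes only rose (Gna12, Gnb1, Gnb4, Gng2, Rgs10, Rgs19 and Rgs5), 16 only fell (Gna11, Gna13, Gnai1, Gnai2, Gnai3, Gnao1, Gnat2, Gnaz, Gnb2, Gnb5, Gng4, Rgs17, Rgs3, Rgs4, Rgs7 and Rgs8) and Gng12 did both, on different probe sets. A further 11 genes were tested and no probe set of theirs passed, and 9 were too dim to test.

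The knockout arrays lay wholly above the wild type arrays at 14 of the 42 tested members of MG-U74A and wholly below at 24, where 79.1% of all tested probe sets did one or the other. Of all, 35.2% lay above and 43.9% below. On MG-U74B this was 9 above and 9 below of 20, beside 65.0% of all (36.2% above and 28.8% below). Changes that passed and reached 1 log2 unit, 2-fold on this scale, numbered 5 up and 9 down on MG-U74A (10.9% and 10.3% of all tested) and 3 up and 5 down on MG-U74B (5.75% and 6.51% of all). The counts leaned on single arrays and, for dim genes, on the filter. Without the first or the second wild type array 16 and 17 members passed on MG-U74A, and none passed on MG-U74B, where only 1 of all tested probe sets passed without either wild type array. Without the first or the second knockout array 4 and 5 members passed on MG-U74B. With no filter on dim probe sets, calls were lost for Gna12, Gnai3, Gnat2, Gnaz, Gnb5, Gng2, Rgs3, Rgs5, Rgs8 and 1 probe set of Gnai2 on MG-U74A, and for Gnb4, Gng12, Rgs4, Rgs17 and 1 probe set of Gnaz on MG-U74B. Without the variance trend of limma, calls were lost for Rgs5, Gnai3 and Gnat2 on MG-U74A and for Gng12 on MG-U74B, and those of Gnat2 and Gng12 also with the smaller constant of 4% of the trimmed mean.

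**Figure D1:**
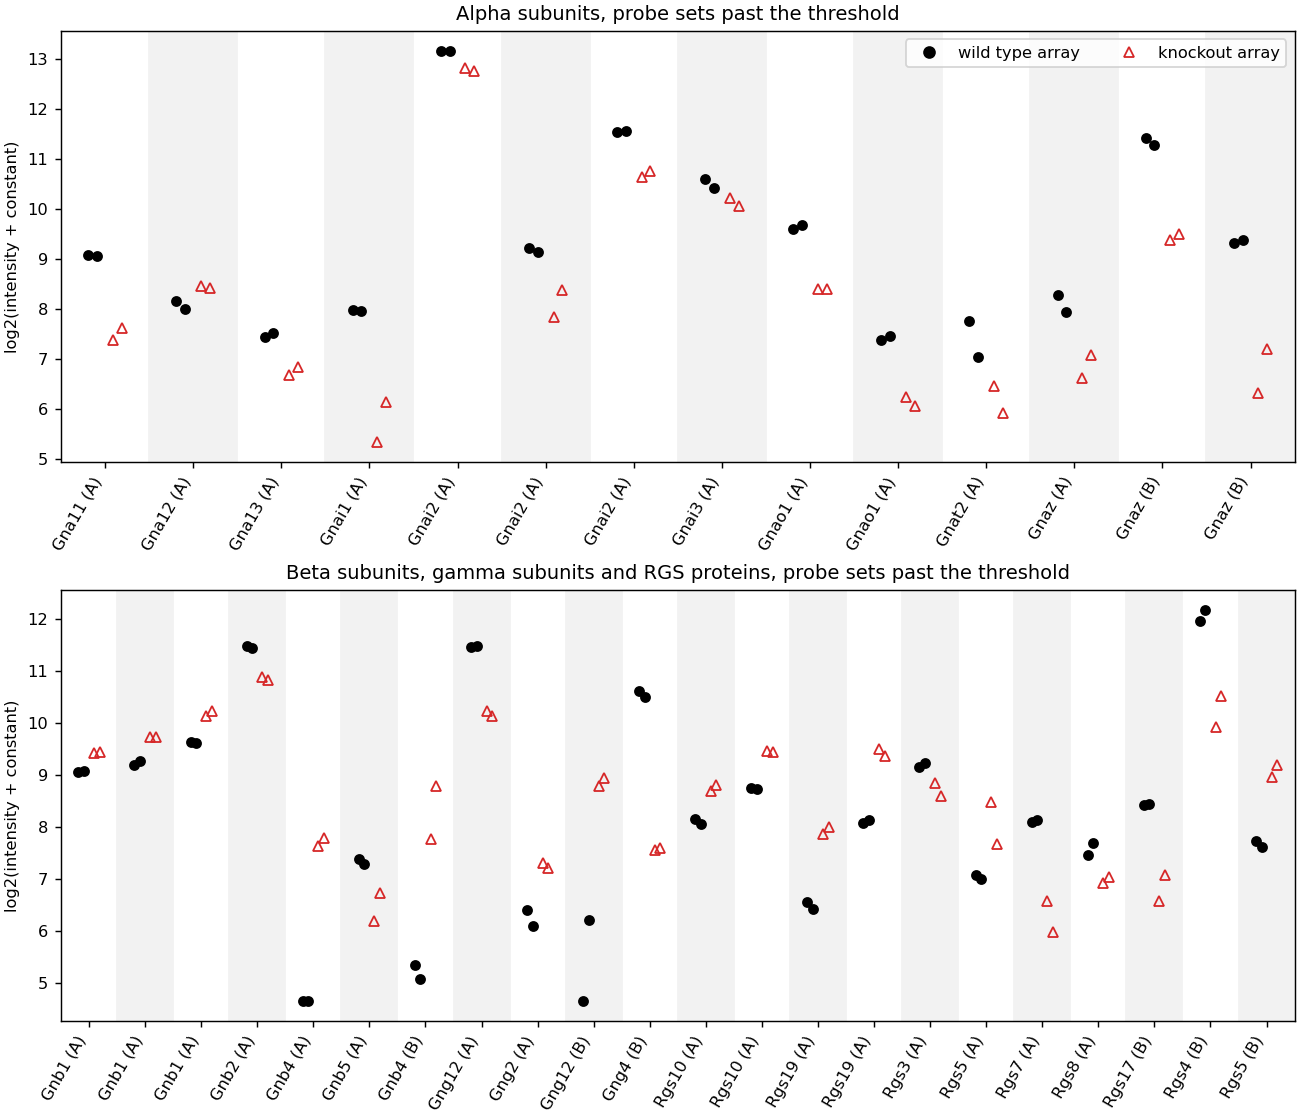
Each member probe set that passed the threshold, with log2(intensity + 25) on the vertical axis and 1 symbol per array (filled circles, 2 wild type arrays; open triangles, 2 knockout arrays); A and B in the labels stand for MG-U74A and MG-U74B. The circles lie above the triangles for most alpha subunits and below them for Gnb1, Gnb4, Rgs10, Rgs19 and Rgs5; heights are not comparable between probe sets.

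Most probe sets for the alpha subunits of the Gi, Go and Gz class fell on MG-U74A. There 8 of the 9 tested fell, beside 29.0% of all tested probe sets, with a median of -1.07. These 9 came from 5 genes, with more than 1 each from Gnai2 and Gnao1. In all 9 both knockout arrays lay below both wild type arrays, beside 43.9% of all. On MG-U74B 2 of 4 fell, both of Gnaz, Gnai3 did not pass, and Gnai1 lay higher in both knockout arrays without passing. Gnai2, the Gi subunit of most cell types, has 3 probe sets, whose neighbouring identifiers may mean shared target sequence. The probe set 99596_f_at read 9207 and 9186 in wild type and 7298 and 6970.1 in knockout arrays, 99598_g_at read 2965 and 3003 against 1569.8 and 1711, and 99597_at read 568 and 541 against 204 and 309. All 3 fell, with changes of -0.37 ± 0.04, -0.85 ± 0.05 and -1.07 ± 0.20 (adjusted p = 0.00245, 7.91e-04 and 0.0148), and the last lost its call without either wild type array (adjusted p = 0.0663 and 0.0576).

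Gnai1, another Gi subunit, read 228 and 225 in wild type and 15.2 and 45.7 in knockout arrays on its tested MG-U74A probe set. The wild type arrays nearly coincided and both knockout arrays fell to near the dim end of the scale, a change of -2.24 ± 0.32 (adjusted p = 0.00709). Gnai3, a broadly made Gi subunit, read 1536 and 1347 against 1176 and 1051 on MG-U74A. The groups did not overlap and Gnai3 fell by 0.36 ± 0.09 (adjusted p = 0.0341), a call lost without the first wild type array (0.133) or the second knockout array (0.111). On MG-U74B Gnai3 read 2318 and 2360.1 against 2193 and 2219, apart by little, and did not pass (change -0.08 ± 0.09, adjusted p = 0.546).

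Gnao1 encodes the Go subunit of neurons and endocrine cells, through which receptors close calcium channels. Its probe set 103843_at read 750.1 and 792 in wild type and 312 and 311 in knockout arrays, and 161902_f_at read 141 and 149.8 against 50.4 and 41.9. Both fell by similar amounts, with changes of -1.24 ± 0.06 (adjusted p = 4.58e-04) and -1.26 ± 0.17 (adjusted p = 0.00618, and 0.0512 and 0.0576 without the first or second wild type array). The third tested Gnao1 probe set, 104414_at, read 311 and 303 against 169 and 244 and did not pass (change -0.54 ± 0.19, adjusted p = 0.0736).

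Gnaz encodes Gz, a pertussis toxin resistant inhibitor of adenylyl cyclase made in neurons, platelets and islets. On MG-U74B its probe set 106545_at read 2718 and 2465 in wild type and 646 and 697 in knockout arrays, and 163413_at read 612 and 645 against 54.2 and 121. On MG-U74A its probe set read 284 and 219.7 against 73.5 and 110.2. In all 3 the genotypes were well apart, and the changes were -1.91 ± 0.12 (adjusted p = 0.00530), -2.60 ± 0.37 (0.0162) and -1.25 ± 0.23 (0.0137). The MG-U74B calls were lost without the first wild type array (0.0725 and 0.107) or the second (0.0667 and 0.118), and the MG-U74A call without the first (0.0748). Gnaz is thus the alpha subunit gene whose fall was called on both array types. Markers of beta, other islet and acinar cells fell on MG-U74A, as given above. On MG-U74B no marker of beta or other islet cells was on the array, and 2 of 2 tested acinar markers fell.

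Of the Gq class, which activates phospholipase C beta, Gna11 fell and Gnaq did not pass. Gna11 read 520.0 and 508 in wild type and 142 and 172 in knockout arrays on MG-U74A. Both knockout arrays were far below, with a mean at 30.6% of wild type and a change of -1.57 ± 0.11 (adjusted p = 0.00110). Gnaq read 98.0 and 90.8 against 109 and 66.4 on MG-U74A, where the groups overlapped (change -0.11 ± 0.25, adjusted p = 0.739). On MG-U74B the tested Gnaq probe set read 549.9 and 552 against 132 and 273, apart but short of the threshold (change -1.41 ± 0.36, adjusted p = 0.0598). Gna15, the promiscuous Gq subunit of blood-forming cells, changed by -0.60 ± 0.32 and -0.33 ± 0.62 on the array types and passed on neither (adjusted p = 0.186 and 0.729).

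The G12 class gave a small rise and a fall. Gna12 read 262 and 230.2 in wild type and 329 and 319 in knockout arrays on its brighter probe set. Both knockout arrays were higher, a rise of 0.37 ± 0.10 (adjusted p = 0.0401) that was lost when any 1 array was left out (adjusted p = 0.0787 to 0.207). The other Gna12 probe set changed by -0.27 ± 0.19 and did not pass (adjusted p = 0.280). Gna13 read 148 and 158 against 77.6 and 88.6 on probe set 104316_at, a change of -0.72 ± 0.15 (adjusted p = 0.0194, and 0.106 and 0.134 without the first or second wild type array). Its other probe set, 100514_at, read 280.0 and 269.7 against 277 and 249.7, overlapping values (change -0.06 ± 0.10, adjusted p = 0.646).

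Gnat2, the transducin alpha subunit of cone photoreceptors, read 191 and 106 in wild type and 62.4 and 35.0 in knockout arrays on MG-U74A. It fell by 1.22 ± 0.35 with an adjusted p of 0.0485, next to the threshold, and failed when any 1 array was left out (adjusted p = 0.0516 to 0.187). Gnal, the Golf subunit of smell, read 120.2 and below 0 against 177 and 226 on MG-U74B and did not pass (change 1.90 ± 0.92, adjusted p = 0.214).

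The beta subunits moved in opposite directions. All 7 of their tested probe sets on the array types changed, 5 up and 2 down. Of all tested probe sets, 52.9% changed for MG-U74A and 17.5% for MG-U74B. The rises came only from Gnb1 and Gnb4, each with several probe sets, and the falls from Gnb2 and Gnb5. The neighbouring identifiers 94853_at and 94854_g_at of Gnb1 may mean shared target sequence. Gnb1, the beta subunit made in most cells, has 3 probe sets on MG-U74A. They read 511 and 513 in wild type and 666 and 669 in knockout arrays (94853_at), 564 and 590.4 against 829 and 822 (94854_g_at) and 772 and 763 against 1105 and 1186 (97458_at). The replicates of each genotype were close and the knockout arrays higher throughout, with rises of 0.37 ± 0.05, 0.50 ± 0.05 and 0.56 ± 0.05 (adjusted p = 0.00636, 0.00290 and 0.00233; the first 0.0614 and 0.0589 without the first or second wild type array).

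Gnb2, the other common beta subunit, went the opposite way, from 2845 and 2777 to 1886 and 1799.5, a change of -0.60 ± 0.04 (adjusted p = 9.49e-04). Gnb5, which binds RGS proteins of the R7 family in place of a gamma subunit, read 143 and 130.3 against 47.8 and 81.3. It fell by 0.88 ± 0.25 (adjusted p = 0.0443), a call lost without the first (0.179) or second (0.141) wild type array.

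Gnb4 rose on both array types, from wild type arrays at the floor of the scale, and was bright enough to test only through its knockout arrays. On MG-U74A it was listed below 0 in both wild type arrays and at 174 and 195 in the knockout arrays, and on MG-U74B it read 15.4 and 8.80 against 192 and 420.3. Every knockout array was far above every wild type array of its type. The rises were 3.06 ± 0.22 on MG-U74A (adjusted p = 0.00106) and 3.07 ± 0.54 on MG-U74B (adjusted p = 0.0261). With wild type at the floor these sizes depend on the constant added before the log, and ran from 2.23 to 4.28 and from 2.44 to 3.75 over the settings tried. The difference between the types ran from -0.63 to 0.52 over the settings in which it was tested. The MG-U74B call was lost when any 1 array was left out (adjusted p = 0.0601 to 0.118). Markers of lymphocytes, macrophages and fibroblasts, given above, rose on MG-U74A, where Gnb1 and Gnb4 also rose. On MG-U74B 1 of 2 tested lymphocyte markers rose, and no macrophage or fibroblast marker was tested.

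Among the gamma subunits, which anchor the beta subunit to the membrane through a lipid tail, Gng4 fell most and Gng2 rose. Gng4, a gamma subunit of neurons and endocrine cells, read 1555 and 1427 in wild type and 163 and 168 in knockout arrays on MG-U74B. Both genotypes were tight, and the knockout mean was lower by 9.0-fold, a change of -2.99 ± 0.16 (adjusted p = 0.00530, and 0.0725 and 0.0667 without the first or second wild type array). The dim Gng4 probe set of MG-U74A read 120.1 and 134 against 80.1 and 19.7 and did not pass (change -1.15 ± 0.46, adjusted p = 0.107). Gng2, a widely made gamma subunit, read 60.1 and 43.3 against 134 and 123 on MG-U74A. It was bright enough to test there only through its knockout arrays. It rose by 1.01 ± 0.20 (adjusted p = 0.0170), a call lost without the second wild type array (0.0851) or the first knockout array (0.0533). On MG-U74B Gng2 read 84.8 and 113 against 92.4 and 128, overlapping values (change 0.13 ± 0.41, adjusted p = 0.850).

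Other gamma subunits, apart from Gng12, which is given below, stayed short of the threshold. Gng10 read 625 and 628 against 675 and 697 (change 0.13 ± 0.05, adjusted p = 0.104), and Gng11 changed by 0.11 ± 0.15 (adjusted p = 0.581). Gng3, a neuronal gamma subunit, read 178 and 167 against 226 and 224, apart in every array (change 0.34 ± 0.10, adjusted p = 0.0523). Gng8, with 1 knockout array below 0 on MG-U74B, changed by -1.84 ± 0.80 (adjusted p = 0.180).

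The RGS proteins followed no common direction. Of the 20 tested RGS probe sets on the array types 6 rose and 5 fell, where 52.9% of all probe sets changed on MG-U74A and 17.5% on MG-U74B. Rgs10, a small RGS protein of macrophages, microglia and other cells, read 262 and 240.7 in wild type and 389 and 422 in knockout arrays on 160629_at, and 407 and 403 against 685 and 669 on 161765_f_at. The genotypes were well apart on both, with rises of 0.64 ± 0.09 and 0.71 ± 0.05 (adjusted p = 0.00665 and 0.00133). Rgs19, an RZ family member that acts on Gi, Go and Gz, read 68.8 and 60.7 against 208 and 232 on 103605_g_at, and 245 and 255 against 703 and 637 on 103606_r_at. Both tested Rgs19 probe sets rose, by 1.45 ± 0.15 and 1.34 ± 0.08 (adjusted p = 0.00276 and 7.03e-04). Their neighbouring identifiers may mean shared target sequence. A dimmer Rgs19 probe set, 103604_at, was not tested and went the other way, at 43.0 and 56.0 against 12 and below 0. The lymphocyte and macrophage markers given above moved the same way.

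Rgs7 belongs to the R7 family of neurons and endocrine cells, the family that pairs with Gnb5. It read 251 and 257 in wild type and 70.6 and 37.7 in knockout arrays on MG-U74A. Both knockout arrays were far below, a change of -1.85 ± 0.25 (adjusted p = 0.00598), and Gnb5, above, fell on the same arrays. The other R7 members, Rgs6, Rgs9 and Rgs11, were too dim to test on MG-U74A.

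Rgs17, an RZ family member that turns off Gz and Gi, gave different values on its probe sets of MG-U74B. The probe set 110089_at read 317 and 322 in wild type and 70.9 and 110.0 in knockout arrays, a change of -1.60 ± 0.33 (adjusted p = 0.0372) that was lost when any 1 array was left out (0.0510 to 0.187). The probe set 108264_at read 270.2 and 308 against 418 and 310.2 and did not pass (change 0.30 ± 0.24, adjusted p = 0.428). The difference of 1.90 ± 0.43 between these changes did not pass either (adjusted p = 0.133).

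Rgs4 and Rgs5, both of the R4 family of small RGS proteins, lie side by side on mouse chromosome 1 with no protein-coding gene between them, and their transcripts went in opposite directions. Rgs4, made in neurons and beta cells, where it restrains Gq and Gi signals, read 4003 and 4629 in wild type and 947 and 1443 in knockout arrays on MG-U74B. The genotypes were far apart, a change of -1.86 ± 0.22 (adjusted p = 0.0111, and 0.0804 and 0.0918 without the first or second wild type array). The Rgs4 probe set of MG-U74A lay between below 0 and 17.1 and was not tested. Rgs5, a marker of pericytes, read 188 and 172 against 478 and 559 on MG-U74B, and 111 and 104 against 333 and 180.4 on MG-U74A. Every knockout array was above every wild type array, with rises of 1.40 ± 0.22 (adjusted p = 0.0199) and 1.04 ± 0.30 (adjusted p = 0.0482). The MG-U74B call was lost when any 1 array was left out (0.0662 to 0.113), and the MG-U74A call without the first (0.129) or second (0.148) wild type array. Of the smooth muscle and pericyte markers on MG-U74A 4 of 5 tested rose, with a summed intensity of 359 to 464 in wild type and 2069 to 2309 in knockout arrays, and Acta2 and Cnn1 were listed at or below 0 in both wild type arrays.

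The 250 bases before the start of Rgs4, Rgs5 and Gng4 are shown because these genes carry the pair of opposite neighbours and the largest fall. They are from RefSeq on GRCm38.p6, where 34 of the 44 member genes were matched to a promoter, and lie at chr1:169747643-169747892 (minus strand, Rgs4), chr1:169655251-169655500 (plus strand, Rgs5) and chr13:13783809-13784058 (plus strand, Gng4). Capitals mark a TATA box (TATAAA) and CCAAT boxes (CCAAT, read as ATTGG on the opposite strand).
Rgs4: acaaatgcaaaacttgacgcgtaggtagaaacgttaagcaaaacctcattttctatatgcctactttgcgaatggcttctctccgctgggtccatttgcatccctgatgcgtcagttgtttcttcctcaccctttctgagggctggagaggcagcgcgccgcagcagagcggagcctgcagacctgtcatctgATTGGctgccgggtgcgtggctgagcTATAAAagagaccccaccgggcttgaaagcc
Rgs5: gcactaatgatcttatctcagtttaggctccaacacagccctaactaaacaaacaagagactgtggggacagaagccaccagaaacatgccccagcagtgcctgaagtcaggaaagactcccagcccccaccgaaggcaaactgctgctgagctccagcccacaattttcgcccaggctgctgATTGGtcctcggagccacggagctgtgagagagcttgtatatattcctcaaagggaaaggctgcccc
Gng4: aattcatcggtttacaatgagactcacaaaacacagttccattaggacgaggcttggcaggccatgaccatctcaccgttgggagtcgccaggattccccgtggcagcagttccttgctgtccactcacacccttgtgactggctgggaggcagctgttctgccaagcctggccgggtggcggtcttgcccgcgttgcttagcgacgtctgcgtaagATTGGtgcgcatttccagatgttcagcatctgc
Windows of this length of 32841 RefSeq starts were searched on both strands, and the motifs do not overlap one another here. TATAAA was in 12.4% of them, CCAAT in 33.9%, the GC box GGGCGG in 32.7% and the cyclic AMP response element TGACGTCA in 1.55%. Rgs4 had TATAAA 31 bases before its start and CCAAT on the opposite strand at 57. Rgs5 and Gng4 had CCAAT on the opposite strand at 67 and 33. Only the exact letters TATAAA were searched, so the stretch tatatatt close to the start of Rgs5 is not marked. Its absence from the marks does not mean that Rgs5 lacks a TATA box. None of these windows held GGGCGG or TGACGTCA, which says only that those letters are not in them.

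The remaining R4 and R12 members had smaller changes. Rgs8 read 151 and 180.5 in wild type and 96.3 and 107 in knockout arrays on MG-U74A, a change of -0.59 ± 0.15 (adjusted p = 0.0363) that was lost when any 1 array was left out (0.0578 to 0.216). Rgs16, the gene next to Rgs8 on chromosome 1 and known with it from the developing pancreas, did not pass on either probe set (changes -0.25 ± 0.11 and 0.21 ± 0.16, adjusted p = 0.123 and 0.332). Rgs2, which favours Gq, read 131 and 171 against 96.1 and 107 (change -0.47 ± 0.18, adjusted p = 0.0947). Rgs14, which also binds Gi subunits through a GoLoco motif, read 407 and 382 against 309 and 221 (change -0.55 ± 0.17, adjusted p = 0.0585). The 3 tested Rgs12 probe sets changed by -0.23 to 0.61 and none passed (adjusted p = 0.110 to 0.497).

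**Figure D2:**
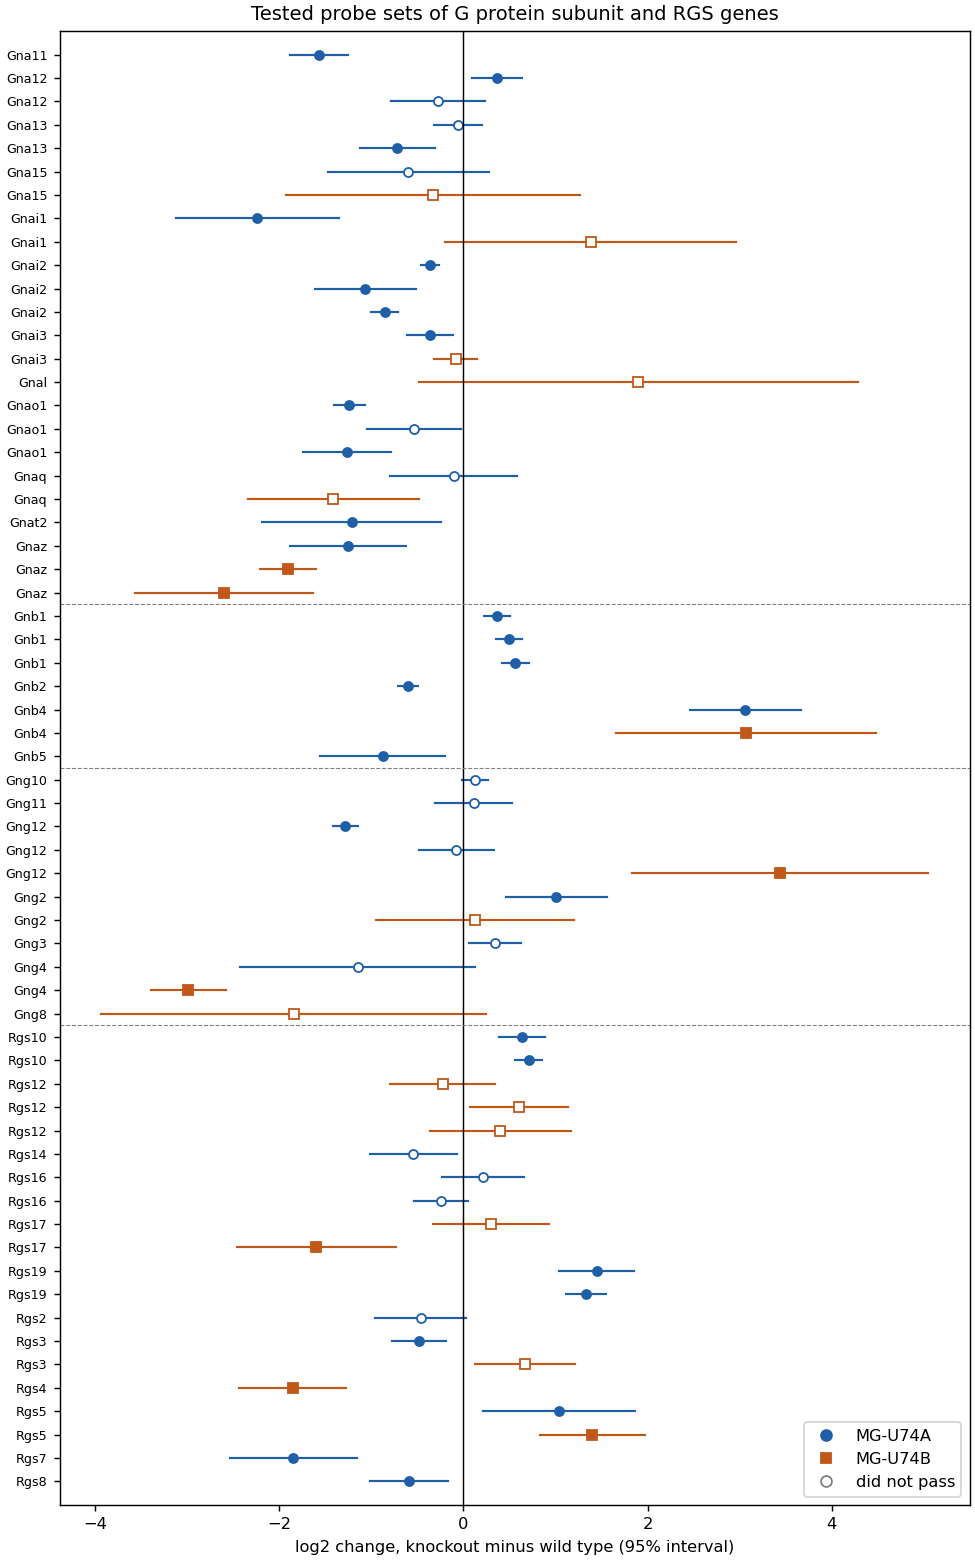
The log2 change (knockout minus wild type) of each tested member probe set with its 95% interval, by class from alpha subunits at the top to RGS proteins at the bottom; circles stand for MG-U74A, squares for MG-U74B and open symbols for changes that did not pass. Most alpha subunits lie left of 0, and both Gnb4 points lie far to the right of it.

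A set of 11 genes was tested on both array types, in 13 pairs of probe sets, and in 4 pairs the change differed between the types (adjusted p below 0.05 for the interaction of genotype and array type over 1690 pairs of all genes, of which 21.0% differed). In each of the 4 the change on MG-U74B was the higher, as in 255 of the 355 pairs of all genes that differed. Gng4 leaned the other way, by 1.84 ± 0.53, short of the threshold (adjusted p = 0.0583), and passed with a constant of 20% of the trimmed mean or without either knockout array. Gnai1 fell on MG-U74A, as above. Its tested MG-U74B probe set, 106808_r_at, read 301 and 1014 in wild type and 1969.9 and 1127 in knockout arrays. These MG-U74B arrays of 1 genotype differed widely, and their change of 1.38 ± 0.61 did not pass (adjusted p = 0.182). Another Gnai1 probe set of MG-U74B, 106807_i_at, was below 0 in all 4 arrays and was not tested. The difference between the Gnai1 changes was -3.62 ± 0.84 (adjusted p = 0.0320), and it was lost when any 1 array was left out (0.0617 to 0.170).

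Gng12, a gamma subunit of many tissues, differed in 2 pairs. Its probe set 102767_at on MG-U74A read 2808 and 2833 in wild type and 1186 and 1104 in knockout arrays, a change of -1.28 ± 0.05 (adjusted p = 2.78e-04). On the same arrays 99477_at read 199 and 224 against 178 and 222, overlapping values with a change of -0.08 ± 0.15 (adjusted p = 0.686). On MG-U74B 165105_f_at read below 0 and 48.6 in wild type and 416 and 468 in knockout arrays, a rise of 3.44 ± 0.62 (adjusted p = 0.0272), lost when any 1 array was left out (0.0667 to 0.117) or with a smaller constant. This probe set was bright enough to test only through its knockout arrays. The suffix letter f marks probe sets whose probes match more than 1 member of a sequence family. So 165105_f_at may not read Gng12 alone. The same limit holds for the called 99596_f_at of Gnai2, 161902_f_at of Gnao1, 161765_f_at of Rgs10 and 99553_f_at, the only probe set of Rgs8.

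Both Gng12 probe sets of MG-U74A differed from that of MG-U74B, by -4.72 ± 0.66 (adjusted p = 0.00769) and -3.52 ± 0.67 (adjusted p = 0.0188). With a wild type array of 165105_f_at below 0 their size depends on the constant, and over the settings tried they ran from -5.51 to -3.95 and from -4.30 to -2.81. These differences were lost without the first knockout array (0.0620 and 0.107) or the second (0.0513 and 0.0841). The first is the member pair with calls in opposite directions, which 2.19% of all pairs had. The MG-U74A probe sets also differed from each other (-1.21 ± 0.20, adjusted p = 0.0257, and 0.103, 0.0715 and 0.0524 without the first or second wild type or the second knockout array), the 1 member pair of 15 on that array type that did, where 24.0% of all pairs on MG-U74A differed. None of the 15 had calls in opposite directions, as 3.53% of all pairs there had. By limma none of the 5 member pairs on MG-U74B differed after adjustment, as 0.453% of all pairs there did. Only that of Rgs17 had an unadjusted p below 0.05 (0.00973).

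Rgs3, an R4 family member with long and short forms, is the fourth pair. It read 549 and 579 in wild type and 436 and 362 in knockout arrays on MG-U74A, a change of -0.48 ± 0.11 (adjusted p = 0.0240, and 0.0859 and 0.117 without the first or second wild type array). On MG-U74B it read 265 and 232 against 423 and 397, apart in the opposite sense, with a change of 0.67 ± 0.21 that did not pass (adjusted p = 0.0945). The difference was -1.15 ± 0.22 (adjusted p = 0.0181), and 0.119 and 0.156 without the first or second wild type array.

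When probe sets with a suffix letter for relaxed probe choice were left out, an alternative chosen after values had been seen, Rgs3 was the pair that still differed, 1 of 10. Genes such as Gnaz and Rgs5 had no detected difference between the array types (0.66 ± 0.30 and 1.35 ± 0.46 for Gnaz, -0.36 ± 0.38 for Rgs5, adjusted p = 0.168, 0.0924 and 0.533). Gnai3 and Gng2, called on MG-U74A and not on MG-U74B, did not differ between the types by this test (adjusted p = 0.352 and 0.0906).

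**Figure D3:**
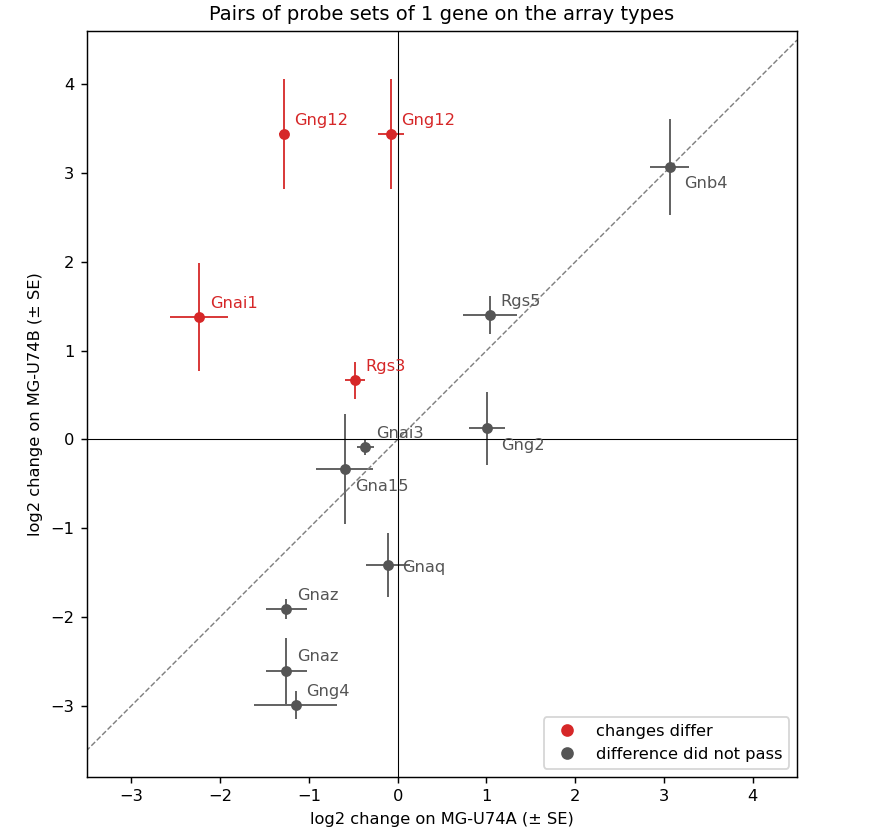
The log2 change on MG-U74A (horizontal) against that on MG-U74B (vertical) for the 13 pairs of probe sets of 1 gene tested on both, with standard errors; the dashed line marks equal changes. The 4 pairs whose changes differ (Gng12 in 2 pairs, Gnai1 and Rgs3) lie above the line.

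The genes around the G proteins were counted with 1 probe set a gene. On MG-U74A 20 of 70 tested pathway genes rose and 21 fell, where 23.9% of all tested probe sets rose and 29.0% fell. On MG-U74B 8 of 50 rose and 4 fell, beside 8.59% and 8.87% of all. Of 10 tested receptors of islet cells on MG-U74A 4 fell and none rose. They were led by Crhr2, a receptor of urocortins, at -1.27 ± 0.25, and the somatostatin receptors Sstr5 at -1.14 ± 0.22 and Sstr4 at -1.11 ± 0.08, which couple to Gi and Go (adjusted p = 0.0166, 0.0152 and 0.00115). Sstr4 kept its call in all 14 settings tried. Sstr5 lost it without the first or second wild type array (0.0679 and 0.0935) and Crhr2, too dim to test without either of these arrays, with no filter (0.0545). On MG-U74B limma passed none of 4, and 1 of them, the fatty acid receptor gene Ffar4, had an unadjusted p below 0.05 (change 0.35, adjusted p = 0.124).

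Receptors of leukocytes and vessels rose or did not pass, 7 of 12 on MG-U74A and 3 of 6 on MG-U74B. Ccr6, a chemokine receptor of lymphocytes and dendritic cells, read 47.7 and 39.8 in wild type and 609 and 489 in knockout arrays. The rise was 3.06 ± 0.16 (adjusted p = 5.23e-04), and Ccr6 was bright enough to test only through its knockout arrays. Ccr7 and Cxcr4, which guide lymphocytes, rose by 2.27 ± 0.08 and 2.01 ± 0.21 on MG-U74A (adjusted p = 2.37e-04 and 0.00311). On MG-U74B Gpr18, a receptor of lymphoid cells, rose by 3.42 ± 0.21, the angiotensin receptor Agtr1a by 2.17 ± 0.35 and S1pr3 by 1.93 ± 0.11 (adjusted p = 0.00530, 0.0213 and 0.00530). The receptors that rose on MG-U74A moved with the leukocyte and stromal markers given above for that array type. On MG-U74B 1 of 2 tested lymphocyte markers rose, 0 of 1 of smooth muscle and 0 of 3 of endothelial cells. No macrophage or fibroblast marker was tested there.

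In the cyclic AMP branch 4 of 8 tested genes fell and 1 rose on MG-U74A. On MG-U74B 1 of 10 fell and 2 rose. Gnas, the Gs subunit that stimulates adenylyl cyclase, read 15843 and 16172 in wild type and 7679 and 8183 in knockout arrays, a change of -1.01 ± 0.04 (adjusted p = 3.45e-04). Its partner enzymes divided, with a change of -1.56 ± 0.10 for Adcy9, which fell, and of 1.90 ± 0.38 for Adcy7, a cyclase of blood cells, which rose (adjusted p = 8.62e-04 and 0.0176). Of the enzymes that degrade cyclic AMP, Pde8a fell by 1.03 ± 0.21 on MG-U74A and Pde3b, which opposes insulin release in beta cells, fell by 1.12 ± 0.17 on MG-U74B (adjusted p = 0.0175 and 0.0196). Pde1a rose by 2.81 ± 0.60 on MG-U74B (adjusted p = 0.0390). Its wild type arrays read 5.60 and below 0 and those of Adcy7 read 6.20 and 34.9, so both sizes depend on the constant. Over the settings tried they ran from 2.06 to 3.84 for Pde1a and from 1.43 to 2.45 for Adcy7. Both genes were bright enough to test only through their knockout arrays. Adcy7 was too dim to test without either knockout array, and Pde1a without the second. Among the cyclic AMP effectors 4 of 12 rose and 3 fell on MG-U74A, and 1 of 8 rose and 1 fell on MG-U74B. The anchoring protein gene Akap9 fell by 1.26 ± 0.32 on MG-U74A and Akap2 rose by 1.51 ± 0.20 on MG-U74B (adjusted p = 0.0343 and 0.0136). Akap9 was bright enough to test on MG-U74A only through its wild type arrays. On MG-U74B it changed by -0.48 ± 0.25 and did not pass (adjusted p = 0.243). With no filter on dim probe sets the calls of Adcy7, Pde8a, Pde3b, Pde1a, Akap9 and Akap2 were lost. Those of Pde3b and Akap2 were also lost without the variance trend, and those of Pde1a and Akap9 with a replicate block.

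In the phospholipase C branch 6 of 10 tested genes fell and 2 rose on MG-U74A. On MG-U74B 1 of 13 fell and 2 rose. Of the protein kinase C genes named for a change of at least 1 log2 unit, Prkcb, Prkce and Prkcz fell, with changes of -1.24 ± 0.06, -1.13 ± 0.22 and -1.04 ± 0.07 on MG-U74A (adjusted p = 4.21e-04, 0.0161 and 9.81e-04), and Prkca fell by 1.39 ± 0.14 on MG-U74B (adjusted p = 0.00889). Prkcd, under that size and chosen after its value was seen, rose by 0.97 ± 0.12 on MG-U74A (adjusted p = 0.00483). On MG-U74B the changes of Prkcb, Prkce and Prkcz were 0.37, 0.28 and 0.71, and none passed (adjusted p = 0.489, 0.203 and 0.356). Dgka, the diacylglycerol kinase of T cells, rose by 1.36 ± 0.17 on MG-U74A (adjusted p = 0.00472). On MG-U74B the inositol trisphosphate receptor gene Itpr2 rose by 1.31 ± 0.18 and Prkch by 1.02 ± 0.19 (adjusted p = 0.0154 and 0.0302). The calls of Prkce, Itpr2 and Prkch were lost with no filter on dim probe sets, and those of Itpr2 and Prkch also without the variance trend. Among other regulators Ramp3, a partner of the calcitonin receptor family, rose by 3.55 ± 0.22 from below 0 in both wild type arrays, and Pdcl3 rose by 1.80 ± 0.32 (adjusted p = 7.76e-04 and 0.0131). Ramp3 was bright enough to test on MG-U74A only through its knockout arrays. The size for Ramp3 depends on the constant and ran from 2.67 to 4.80 over the settings tried. On MG-U74B Ramp3 changed by 0.34 ± 1.17 and did not pass (adjusted p = 0.859).

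Without the first or second wild type array 25 and 23 pathway genes passed on MG-U74A and none on MG-U74B, where 6 passed without the first knockout array. Among the MG-U74A calls named, those of Prkce and Pdcl3 were lost without either wild type array (adjusted p = 0.0826 and 0.0923 for Prkce, 0.0514 and 0.0530 for Pdcl3). Pde8a lost its call without the second wild type or second knockout array (0.0865 and 0.0655), and Akap9 without the second wild type or first knockout array (0.0815 and 0.0715).

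**Figure D4:**
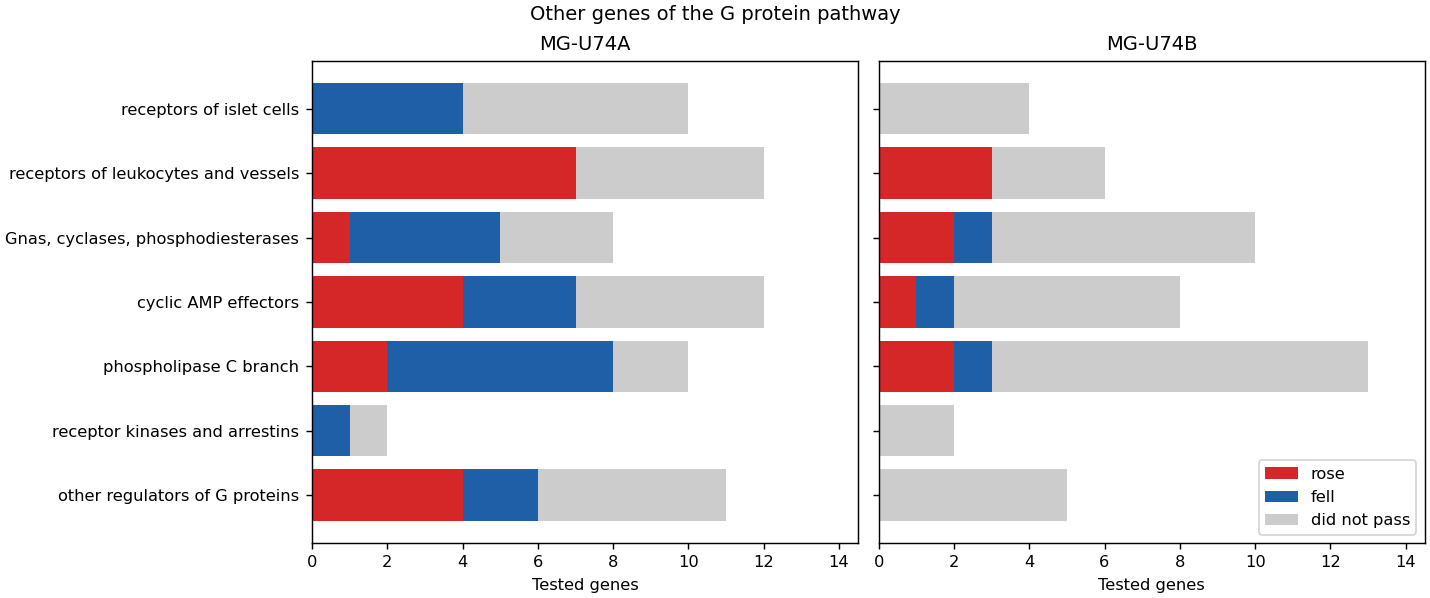
Tested genes of 7 lists of the G protein pathway outside the members, by how many rose (red), fell (blue) or did not pass (grey) on each array type. On MG-U74A receptors of islet cells show 4 falls and no rise, and receptors of leukocytes and vessels 7 rises and no fall.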

How the data were processed

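Islet RNA was measured on MG-U74A and MG-U74B arrays, 2 wild type and 2 knockout of each type. Each probe set has 1 deposited intensity on a linear scale. The authors had scaled the arrays alike, since their means without the outer 2% at each end were 250.2 for MG-U74A and, for MG-U74B, 250.1. Their software: not given in the sources used here. Each array was brought to the common trimmed mean of its type, a change of at most 0.00784%, negative values became 0, and a constant of 25 (10% of that mean) was added before log2. This constant makes the change of a dim gene smaller than the ratio of its intensities. Probe sets with a mean under 62.5 (25%) and the 66 controls of each type were left out. Knockout was compared with wild type within each array type with lmFit and eBayes with a trend (limma 3.58.1, R 4.3.3), two-sided, with Benjamini-Hochberg adjustment over all tested probe sets of the type and a threshold of 0.05. An exact permutation test of 2 against 2 arrays cannot go below 0.333. Differences between probe sets of 1 gene were tested by the interaction with array type, or on their log2 difference within a type, over all such pairs. The steps were tested on simulated data.

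On MG-U74A 10855 probe sets had 1 symbol, 396 several and 1237 none, and on MG-U74B 10603, 178 and 1696. Names came from the array annotation, updated through GRCm38.p6 tables, where 1 probe set with a further symbol beside a matching one was left out. All member genes with a call or with several tested probe sets are named, and of each pathway list the called genes of at least 1 log2 unit, up to 4 on each array type. Members, lists and rules were chosen with earlier results of these data known. The replicate numbers did not pair the arrays (correlation of deviations 0.024 and 0.032 over 2 pairs), and no block was used. The targeted gene is not reported here, so genotypes are as labelled, and neither is 1 pathway list, which only the pathway totals include. Precision is limited by there being 2 arrays a group. Alternatives were another constant, a floor, other scalings, other filters, no trend, a replicate block and leaving out each array.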

Additional observations from a re-analysis of the deposited data

How the results depend on the processing

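With 2 arrays a group, single arrays decide many calls, and the arrays left alone in a group were assumed to vary like the others. In every setting in which they were tested 15 of the 28 called members on MG-U74A (11 genes: Gna11, Gnai1, Gnai2, Gnao1, Gnb1, Gnb2, Gnb4, Gng12, Rgs7, Rgs10 and Rgs19) stayed past the threshold, and 0 of the 8 on MG-U74B did; outside the leave-outs it was 18 and 3. Gnb4 on MG-U74A, bright enough to test only through its knockout arrays, was not tested when either of them was left out. Those settings therefore say nothing about its call. Gnb4 and Gng12 on MG-U74B and Gng2 on MG-U74A also reached the filter only through their knockout arrays. Gnai1, Gnat2, Rgs7 and 161902_f_at of Gnao1, all on MG-U74A, reached it only through their wild type arrays. No called change turned its sign. Of the values called in neither fit 18 did, 7 changes and 11 differences between probe sets. The causes were not tested. Without an array the count of all changed probe sets ran from 2439 to 4209 on MG-U74A and from 1 to 934 on MG-U74B, of members from 16 to 27 and from 0 to 5, and of pathway genes from 23 to 41 and from 0 to 10. Pairs that differ between array types then ran from 24 to 445, of which member pairs from 2 to 4, and pairs within a type from 119 to 197 on MG-U74A and were 0 on MG-U74B. With no filter, counts were 764 for all of MG-U74B, 3 for its members and 7 for its pathway genes, 728 for pairs between types and 0 within MG-U74B. The stricter filter, which tests fewer probe sets, gave 17 members and 24 pathway genes on MG-U74A, 172 pairs between types (1 of members), 166 within MG-U74A and 19 within MG-U74B. Without a trend 638 probe sets and 5 pathway genes passed on MG-U74B; this setting was not run for the pairs, which were fitted without a trend. Probe sets without a suffix letter, chosen after seeing the data, gave 230 pairs between types (1 of members), 98 within MG-U74A and 3 within MG-U74B. Within MG-U74B the constants of 4% and 20% gave 19 and 35, and the floor and quantile normalization 0 each. With a replicate block 26 and 7 members passed on MG-U74A and MG-U74B, and 46 pairs within MG-U74B. The other main values moved by less than 1.5 times. The median change of all probe sets on MG-U74B was 0.11, and 0.05 after quantile normalization.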

Other observations

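Of the 84 members, 22 were too dim to test, among them every probe set of Gna14, Gnat1, Gnb3, Gng7, Gngt2, Rgs6, Rgs9, Rgs11 and Rgs13. Rgs5 probe set 96180_at on MG-U74A was below 0 in both wild type arrays and at 84.0 and 103 in the knockout arrays. Gngt2, a transducin gamma subunit of cones, was at below 0 and 1.40 in wild type and at 32.7 and 62.3 in knockout arrays. Gna11 probe set 103411_at went the other way, from 147 and 141 to below 0 in both knockout arrays. Rgs6, of the R7 family, read 36.9 and 35.3 in wild type and 9.40 and below 0 in knockout arrays. Outside the members, the adenylyl cyclase gene Adcy4 fell by 0.81 ± 0.16 on MG-U74A (192.9 and 175.4 to 83.8 and 106, limma adjusted p = 0.0180) and rose by 0.98 ± 0.19 on MG-U74B (235 and 268 to 509 and 532, adjusted p = 0.0333). These probe sets were chosen after their values had been seen.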
